A study of Mus musculus with 6 samples.

Results

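Interleukins and the cytokines grouped with them carry messages between tumor, stromal and immune cells, and their receptors decide which cells can answer. They were examined here in YUMM3.3 melanomas as 89 rows of a count table of 40166 genes: the 81 protein-coding rows whose symbol is Il followed by a digit, and 8 genes added by name (*Lif*, *Lifr*, *Osm*, *Osmr*, *Csf1*, *Csf2*, *Csf3* and *Tslp*). Of these, 54 had over 3 counts in at least 1 tumor, 5 had between 1 and 3 counts at most, and 30 had no count in any tumor. The rule for the names used no measured value, but it was set with earlier results of these data known.

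The tumors grew in C57BL/6 mice after YUMM3.3 cells, a BRAF-mutant mouse melanoma line, were injected under the skin of the lower back. The 3 vehicle tumors (numbered 7, 8 and 9) came from mice given water by oral gavage, and the 3 RGS tumors (numbered 10, 11 and 12) from mice given rigosertib (RGS), an inhibitor of RAS signalling, at 300 mg/kg by the same route, 5 days a week. All were collected at day 17 of treatment and kept in RNAlater, and total RNA was sequenced in bulk. Both groups carry the same cell line in the same strain, so the line's own mutations are shared by controls and treated tumors, and a single implanted line stands for the disease.

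Most interleukin receptors work as pairs or trios of chains, in which a private chain binds the ligand and a chain shared by several cytokines passes the signal on. The type I and II cytokine receptors signal through JAK kinases and STAT transcription factors, and SOCS proteins switch them off, whereas receptors of the IL-1 and IL-17 families signal through the adaptors MyD88 or Act1 to NF-kB. In melanoma, M-CSF and GM-CSF are known for calling in and shaping macrophages and dendritic cells, and IL-33 and IL-1α are known as alarm signals that leave damaged cells.

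RGS tumors held more mRNA for GM-CSF, IL-11, IL-1α and the receptor chains Il4ra, Il2rg, Il3ra and Il10rb, and less for M-CSF, IL-33, IL-15, IL-10 and the receptor chains Il1rap, Il13ra1, Lifr, Il1rl1 and Il9r. Counts were divided by library totals scaled with edgeR's TMM factors and are given as CPM, the usual scale on which libraries of unequal depth can be compared. The groups were set against each other with the quasi-likelihood method of edgeR. Its p-values were adjusted by the Benjamini-Hochberg procedure across 15355 genes, those reaching a median count of 5 in either group. An adjusted p under 0.05 is called higher or lower. Of the 42 genes of the set that could be tested, 7 were higher (16.7%) and 9 were lower (21.4%), against 16.3% higher, 16.5% lower and 32.8% in either direction for all tested genes. These shares lie near the background, so the set as a whole did not stand apart by its number of calls. Its median log2 fold change was -0.19, against -0.05 for all tested genes. Of the 42, 6 passed the count filter only through the vehicle group and 4 only through the RGS group. Those 10 were low by construction in the other group. Among the 32 that passed in both groups, 5 were higher and 7 lower, beside 2267 and 2301 of 12829 such genes.

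By role, 3 of the 16 tested ligands were higher and 4 lower, 4 of the 25 tested receptor chains were higher and 5 lower, and the only tested decoy, *Il18bp*, was not called. All 3 RGS tumors lay above all 3 vehicle tumors for 11 of the 42 genes and below them for 14, where 21.7% and 24.0% of all tested genes do so. Nothing in the labels says that tumors 7 to 12 came from separate animals, so the p-values measure only the spread between these samples. In bulk tissue, fewer cells of a type and less RNA per cell cannot be told apart.

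**Figure D1:**
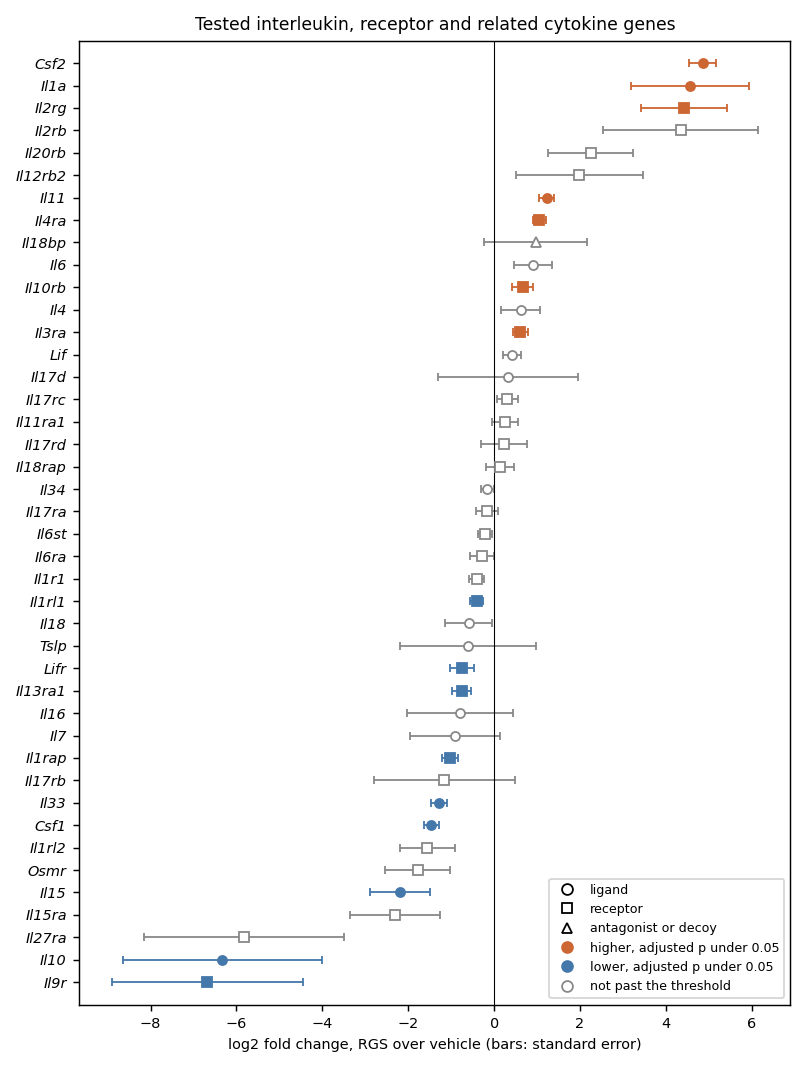
Log2 fold change of RGS over vehicle for the 42 tested genes, 1 per line, sorted from the highest to the lowest; bars are the standard error of edgeR's fit, and symbol shape gives the role. *Csf2* lies at 4.86 with a short bar, *Il9r* and *Il10* lie lowest with the longest bars among called genes because their RGS counts were 0, and 26 genes are open symbols, not past the threshold.

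The 6 libraries held between 13837932 and 32555494 counts, and every vehicle library (at least 22793087) was deeper than every RGS library (at most 21617368). A floor of 3 counts stood for 0.0856 to 0.226 CPM, and floors cover counting error only. Mitochondrial genes took 2.13% to 3.20% of the counts with vehicle and 5.60% to 8.22% with RGS. The labels call the samples melanoma tumors, but defining markers of the cells that make and answer interleukins were absent. *Ptprc* (CD45, carried by nearly all leukocytes), *Adgre1*, *Cd3e*, the endothelial gene *Emcn*, the haemoglobin genes *Hbb-bs* and *Hba-a1*, and *Tyr* had 0 counts in all 6 libraries, and *Csf1r* had 3 counts in total. Of 70 markers in 11 lists of cell types, 39 had 3 counts or fewer in every tumor, and 31 of those 39 had none. The 4 leukocyte markers summed to 187 to 248 CPM with vehicle and 920 to 1028 CPM with RGS, nearly all of it *Laptm5* and *Cd53*. The 8 macrophage markers summed to 58.9 to 64.7 and 65.4 to 88.3 CPM, nearly all *Cd68*, and the 10 T and NK cell markers to 0 to 0.602 and 0.612 to 1.42 CPM. The T and NK cell sum with RGS was nearly all *Trac* (0 counts in each vehicle tumor and 30, 16 and 10 with RGS), and with vehicle mostly *Cd4* in tumor 9. The 6 dendritic cell markers summed to 5.88 to 8.51 and 8.21 to 14.3 CPM. Among them *Flt3* was higher (0 to 0.599 and 6.39 to 10.8 CPM, edgeR adjusted p = 1.5e-04), but it passed the count filter only through RGS. *Zbtb46* was not called (4.995 to 8.43 and 1.21 to 4.97 CPM). The 5 endothelial markers summed to 0.946 to 1.20 and 3.24 to 11.2 CPM, mostly *Cdh5* except in vehicle tumor 8, where *Pecam1* (0.499 CPM) exceeded it (0.249 CPM). The 8 keratinocyte markers summed to 0.400 to 1.76 and 6.72 to 21.0 CPM, where the increase was *Ivl* (0 and 5.87 to 19.6 CPM) with *Krt1*, *Trp63* and *Dsg3* at 0. The 6 fibroblast markers summed to 375 to 572 and 277 to 305 CPM. Among them *Col1a2*, *Pdgfra* and *Pdgfrb* were lower, the last at 10.6 to 18.6 and 2.02 to 4.12 CPM (edgeR adjusted p = 1.8e-04). *Col1a1* was not called and *Dcn* was higher (0.571 to 1.46 and 6.55 to 15.7 CPM, edgeR adjusted p = 6.2e-05). Melanocyte markers summed to 4.94 to 7.68 and 4.53 to 10.5 CPM with *Tyr*, *Dct* and *Mlana* at 0. Neutrophil, B cell and mast cell markers summed to at most 0.673, 0.473 and 0.0612 CPM in any tumor. The part of the marker shifts in the values below was not tested. With counts thinned to the smallest library 9 genes of the set were higher and 7 lower, and with mitochondrial genes left out 7 and 8. Over all genes, thinning gave 2473 higher and 2504 lower, and leaving out mitochondrial genes 2486 and 2537.

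Among the ligands, the colony-stimulating factors, which act on myeloid cells, went in opposite directions. *Csf2* (chr11:54247271-54249667, GRCm38, as are all positions here) encodes GM-CSF, the growth factor of granulocytes, macrophages and dendritic cells. It measured 1.83, 2.57 and 5.20 CPM in vehicle tumors 7, 8 and 9 and 82.9, 80.5 and 110 CPM in RGS tumors 10, 11 and 12. The lowest RGS tumor was far above the highest vehicle tumor, and the vehicle tumors themselves spread more widely, in proportion, than the RGS tumors. The fitted difference was 29.0-fold (log2 fold change 4.86, SE 0.31, edgeR adjusted p = 1.5e-09), and it lay between 4.56 and 5.38 on the log2 scale with any 1 tumor left out. An annotated antisense gene, Gm12223, shares 96 of its 800 exon bases and had 0 to 5 counts.

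*Csf1* (chr3:107741048-107760469) encodes M-CSF, the survival factor of macrophages, and moved the other way. Its level was 1035, 731 and 661 CPM in the vehicle tumors and 306, 279 and 294 CPM in the RGS tumors. The RGS tumors lay close together, and each was below every vehicle tumor. It fell by 1.47 on the log2 scale (SE 0.17, edgeR adjusted p = 3.4e-06), and this difference was -1.59 to -1.25 with 1 tumor left out. *Il34*, the other ligand of the M-CSF receptor, was not called: 149, 142 and 138 CPM with vehicle and 119, 129 and 136 CPM with RGS (log2 fold change -0.16, SE 0.15, edgeR adjusted p = 0.445). Its groups lay side by side without overlapping.

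The order of these ligands changed. Levels of different genes are compared per kilobase of gene length, as CPM per kilobase. In vehicle tumors *Csf1* stood first of the 54 genes at 153 ± 37.7 CPM per kilobase (SD, n = 3), *Il34* followed at 73.1 ± 2.76, and *Csf2* was at rank 16 with 3.998 ± 2.22. In RGS tumors *Csf2* stood first at 114 ± 20.8 CPM per kilobase, *Il34* was second at 65.4 ± 4.28 and *Csf1* was at rank 3 with 55.5 ± 2.65. Within a library, *Csf1* exceeded *Csf2* per base of length by 85.9, 43.2 and 19.2 times in the vehicle tumors, whereas this ratio was 0.560, 0.524 and 0.404 in the RGS tumors. The ratio needs no scaling between libraries. Both genes were known to separate the groups when they were paired, so it is a description and was not tested.

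The receptor chains for these ligands were mostly lacking. *Csf1r*, the receptor of M-CSF and IL-34, had 1, 0 and 0 counts with vehicle and 1, 1 and 0 with RGS. *Csf2ra*, the private GM-CSF chain, was at 5.94, 2.89 and 4.08 CPM with vehicle and 7.05, 5.27 and 6.36 CPM with RGS, groups that overlapped (log2 fold change 0.53, SE 0.43, edgeR adjusted p = 0.372). Its signalling partner *Csf2rb* had 0, 2 and 0 counts and 6, 0 and 0 counts, and *Csf2rb2* and *Csf3r* had none. *Il3ra*, the private IL-3 chain, which needs the same partner, was higher: 54.1, 52.7 and 50.6 CPM with vehicle and 66.8, 77.7 and 96.2 CPM with RGS (0.61, SE 0.18, edgeR adjusted p = 0.012). The vehicle tumors were tight and the RGS tumors all above them, but the call was lost without RGS tumor 12 (adjusted p = 0.079), without vehicle tumor 8 (0.0506) and with library size as the only scaling (0.0525). *Il3* and *Il5* had no count in any tumor.

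The sequences upstream of the start sites of *Csf2*, *Csf1*, *Il11* and *Il1a* are shown as examples of ligands called higher (*Csf2*, *Il11*, *Il1a*) and lower (*Csf1*). The other lower ligands, *Il33*, *Il15* and *Il10*, are not shown. They are the 250 bases before the RefSeq start site on GRCm38.p6, printed 5′ to 3′ as the gene reads, all from the minus strand, with motif matches in capitals.
Csf2, chr11:54249900-54250149: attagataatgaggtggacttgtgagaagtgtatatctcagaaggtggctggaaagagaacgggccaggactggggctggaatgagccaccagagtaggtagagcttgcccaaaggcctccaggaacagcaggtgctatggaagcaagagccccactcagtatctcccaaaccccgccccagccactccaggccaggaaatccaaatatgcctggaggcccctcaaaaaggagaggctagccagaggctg
Csf1, chr3:107760470-107760719: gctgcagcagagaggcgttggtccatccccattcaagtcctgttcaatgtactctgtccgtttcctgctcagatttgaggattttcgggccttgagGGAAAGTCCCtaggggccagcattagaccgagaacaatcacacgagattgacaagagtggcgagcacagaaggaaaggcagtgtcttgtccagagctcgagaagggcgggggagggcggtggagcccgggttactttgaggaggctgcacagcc
Il11, chr7:4778142-4778391: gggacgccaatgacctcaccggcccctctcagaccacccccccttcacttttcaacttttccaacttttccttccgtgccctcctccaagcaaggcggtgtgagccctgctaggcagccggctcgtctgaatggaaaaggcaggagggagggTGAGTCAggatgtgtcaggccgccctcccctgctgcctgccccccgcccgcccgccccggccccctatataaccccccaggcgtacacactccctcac
Il1a, chr2:129309973-129310222: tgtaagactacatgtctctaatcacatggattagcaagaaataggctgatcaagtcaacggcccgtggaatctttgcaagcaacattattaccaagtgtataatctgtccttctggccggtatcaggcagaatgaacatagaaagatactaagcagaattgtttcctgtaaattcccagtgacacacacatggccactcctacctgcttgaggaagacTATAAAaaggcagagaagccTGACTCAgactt

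The motifs searched were AP-1 (TGANTCA), STAT (TTCNNNGAA), CRE (TGACGTCA) and NF-kB (by name, a 10-base degenerate pattern) on both strands, and the TATA box (TATAAA) as the gene reads. No pattern contains another. Among all 32851 mouse windows of this length, 6.75% hold an AP-1 match, 7.02% STAT, 1.55% CRE, 7.25% NF-kB and 7.59% the TATA box. The printed *Il11* window holds an AP-1 match that begins 98 bases before its start, but it lies inside the gene as the count table bounds it. The window of the other annotated *Il11* start (chr7:4782858-4783107) lies just upstream of that gene and holds none of the motifs. The *Il1a* window holds a TATA box 32 bases and an AP-1 match 12 bases before the start, and the *Csf1* window an NF-kB match 154 bases before it. The *Csf2* window holds none, and its RefSeq start lies upstream of the gene end in the count table, so the bases just before the table's own start are not in it. Of the 42 tested genes, 33 had such windows, 43 in all. AP-1 matches were in 2 of the 7 windows of higher genes, 0 of the 10 of lower genes and 5 of the 26 of genes not called. NF-kB matches were in 0, 1 and 4 of these windows, STAT matches in 0, 0 and 1, TATA boxes in 1, 2 and 0, and CRE matches in none. A match is a description of the letters, not of a factor at work there.

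IL-11 and its relatives signal through gp130, the chain encoded by *Il6st*. *Il11* (chr7:4772373-4782857), a cytokine of fibrosis and tissue repair, measured 33.3, 39.9 and 44.6 CPM in the vehicle tumors and 82.1, 94.2 and 97.9 CPM in the RGS tumors. Every RGS tumor was well above every vehicle tumor. It was 2.33-fold higher (log2 fold change 1.22, SE 0.18, edgeR adjusted p = 3.2e-05), and between 1.11 and 1.32 on that scale with 1 tumor left out. Its private receptor chain *Il11ra1* stayed low and overlapped, at 6.91, 11.97 and 12.8 CPM with vehicle and 13.4, 13.1 and 11.2 CPM with RGS (0.25, SE 0.30, edgeR adjusted p = 0.565). Its near-identical copies listed as *Il11ra2* had 0 counts, and how reads that match both were assigned is not given in the sources used here. *Il6st* itself was abundant and not called, at 186 to 263 CPM with vehicle and 177 to 206 CPM with RGS (edgeR adjusted p = 0.314).

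*Lif*, which keeps stem cells undifferentiated and acts through Lifr and gp130, was at 25.9, 23.1 and 20.5 CPM with vehicle and 30.6, 35.2 and 26.8 CPM with RGS. These groups lay next to each other without overlap, and the gene was not called (0.41, SE 0.21, edgeR adjusted p = 0.141). *Lifr*, its receptor chain beside gp130, was lower (-0.75, SE 0.28, edgeR adjusted p = 0.0493). It measured 16.1, 17.2 and 17.6 CPM with vehicle and 9.56, 7.08 and 13.5 CPM with RGS. The vehicle tumors agreed closely and the RGS tumors spread below them. This call sat at the threshold and was lost without any single one of vehicle tumors 7, 8 or 9 or RGS tumors 10 or 11 (adjusted p 0.0656 to 0.155). *Osmr*, the oncostatin M chain, fell short of the threshold at 4.80, 5.92 and 2.88 CPM against 2.51, 0.0753 and 1.28 CPM (-1.78, SE 0.76, edgeR adjusted p = 0.0814), and passed it without RGS tumor 10 (0.0394). Its ligand *Osm* had no count. *Il6*, the fever and acute-phase cytokine, ranged over 2.42 to 5.89 CPM with vehicle and 5.75 to 9.56 CPM with RGS (0.90, SE 0.44, edgeR adjusted p = 0.125), and its receptor *Il6ra* over 12.9 to 16.4 and 8.33 to 16.3 CPM (adjusted p = 0.489).

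The IL-1 family holds alarm cytokines, and several of its receptors share the accessory chain IL1RAP. *Il33* (chr19:29925114-29960718), an alarmin of barrier and stromal cells, measured 89.6, 83.1 and 92.6 CPM in vehicle tumors and 43.2, 30.1 and 35.4 CPM in RGS tumors. The highest RGS tumor was far below the lowest vehicle tumor. It fell by 1.29 on the log2 scale (SE 0.18, edgeR adjusted p = 2.3e-05), with -1.43 to -1.17 when 1 tumor was left out. Its receptor chain *Il1rl1* (ST2) was also lower, at 159, 171 and 156 CPM with vehicle and 129, 121 and 117 CPM with RGS (-0.40, SE 0.15, edgeR adjusted p = 0.0444). Both groups of *Il1rl1* were tight and did not overlap. Its call was lost without vehicle tumor 8 or 9 or any 1 RGS tumor (adjusted p 0.0631 to 0.188). Within a library, *Il33* stood at 1.35, 1.16 and 1.42 times *Il1rl1* per base of length with vehicle and at 0.798, 0.594 and 0.724 times with RGS, also a description.

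*Il1rap* (chr16:26581704-26730117), the accessory chain that the IL-1, IL-33 and IL-36 receptors need to signal, measured 87.0, 69.0 and 70.8 CPM with vehicle and 44.0, 31.7 and 35.9 CPM with RGS. All 3 RGS tumors were below all 3 vehicle tumors (-1.02, SE 0.18, edgeR adjusted p = 3.1e-04), and stayed at -1.15 to -0.91 with 1 tumor left out. The ligand-binding chain *Il1r1* lay just under the vehicle range in the RGS tumors, at 58.3, 57.8 and 49.0 CPM against 42.4, 44.2 and 38.4 CPM, and was not called (-0.40, SE 0.18, edgeR adjusted p = 0.0875). *Il1rl2*, the IL-36 receptor chain, was likewise not called at 4.97, 5.95 and 3.22 against 2.84, 1.43 and 0.489 CPM (-1.56, SE 0.64, edgeR adjusted p = 0.0709), though it passed without RGS tumor 10 (0.0249) and with DESeq2 (0.0484). For both genes all 3 RGS tumors were below all 3 vehicle tumors.

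*Il1a* (chr2:129299610-129309972), whose product IL-1α is stored in cells and released on damage, went from near nothing to a low level. Vehicle tumors held 2, 1 and 2 counts of it and RGS tumors 14, 26 and 32, or 0.663, 1.96 and 1.96 CPM. Since no vehicle library passed the floor of 3 counts, the mean RGS level was at least 11.8-fold higher than the highest vehicle floor (edgeR adjusted p = 0.0158). *Il1a* passed the count filter only through RGS. The call was lost without vehicle tumor 8 (0.0739), and a transcript on the opposite strand, Gm14023, covers 222 of its 1974 exon bases and had 2 to 13 counts. *Il1b* had 0 counts in all 6 tumors, and *Il1rn*, the IL-1 receptor antagonist, had 21 counts in RGS tumor 12 and none elsewhere. *Il18* overlapped at 4.65 to 4.94 CPM and 1.51 to 5.73 CPM (-0.59, SE 0.54, edgeR adjusted p = 0.436). The accessory chain *Il18rap* was at 8.56 to 13.6 and 7.59 to 17.8 CPM (adjusted p = 0.793), while the IL-18-binding chain *Il18r1* had no count. The IL-18 antagonist *Il18bp* was at 0.258 to 0.571 and 0.710 to 1.05 CPM (adjusted p = 0.581) and shares exon bases with the far more abundant *Numa1*.

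**Figure D2:**
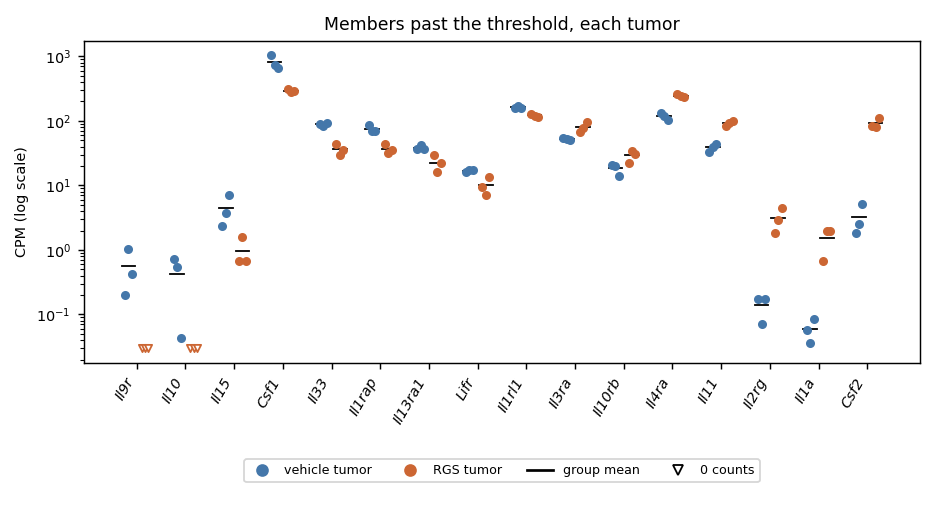
CPM on a log scale of the 16 called genes in each of the 3 vehicle and 3 RGS tumors, with a bar at each group mean and open triangles, placed at the foot of the axis, for 0 counts. In all 16 genes the CPM values of the groups do not overlap, although the lowest vehicle values of *Il10* and *Il9r* lie under the floor of 3 counts in the shallowest RGS library; *Csf2* climbs from 1.83 to 5.20 up to 80.5 to 110 CPM while *Csf1* drops from 661 to 1035 down to 279 to 306 CPM.

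IL-4 and IL-13 share the chain IL-4Rα, which pairs either with the common gamma chain or with IL-13Rα1. These partners did not move together. *Il4ra* (chr7:125552120-125579474) measured 131, 119 and 105 CPM with vehicle and 262, 239 and 234 CPM with RGS. The groups were each tight and far apart (2.07-fold, log2 fold change 1.05, SE 0.15, edgeR adjusted p = 3.9e-05), and the value was 0.97 to 1.12 with 1 tumor left out. *Il13ra1* (chrX:36112110-36171259) went the other way, with 36.5, 41.8 and 36.5 CPM against 29.4, 16.2 and 22.0 CPM (-0.76, SE 0.23, edgeR adjusted p = 0.0145). Its RGS tumors spread more than its vehicle tumors, and the call was lost without RGS tumor 11 (0.0745) or vehicle tumor 8 (0.0755). The ratio of *Il4ra* to *Il13ra1* per base of length was 2.22, 1.76 and 1.78 with vehicle and 5.50, 9.12 and 6.56 with RGS, again a description of genes chosen with their values known. *Il4* was low and overlapped, at 3.77 to 4.53 and 3.43 to 9.72 CPM (0.62, SE 0.45, edgeR adjusted p = 0.314), *Il13* had no count, and the decoy *Il13ra2* had 0 to 14 counts with no order between the groups and was not tested.

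*Il2rg* (chrX:101264378-101268255) encodes the common gamma chain shared by the receptors of IL-2, IL-4, IL-7, IL-9, IL-15 and IL-21. It had 6, 2 and 4 counts with vehicle and 39, 39 and 73 counts with RGS, that is 0.171, 0.0713 and 0.172 CPM against 1.85, 2.94 and 4.47 CPM. All RGS tumors were above all vehicle tumors, at levels per kilobase still under those of *Il4ra* or *Il13ra1*. The fitted log2 fold change was 4.42 (SE 1.004, edgeR adjusted p = 0.00225), and 4.06 to 4.70 with 1 tumor left out. It passed the count filter only through the RGS group. Another gene model on the same strand, Gm20489, covers 728 of its 2387 exon bases. The summed T and NK cell markers, which are the usual carriers of this chain, stood at 0 to 0.602 CPM with vehicle and 0.612 to 1.42 CPM with RGS, with *Cd3e* at 0. *Trac*, a T cell receptor gene, was higher among them (edgeR adjusted p = 0.00592, at least 8.37-fold against the floor, and past the count filter only through RGS). Their part in this result was not tested.

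Apart from *Il4ra*, the chains that pair with the gamma chain were low. *Il2rb*, shared by IL-2 and IL-15, had 3, 0 and 1 counts with vehicle and 0, 32 and 10 with RGS, so its groups overlapped. It passed the count filter only through RGS, where its mean was at least 7.81-fold above the highest vehicle floor. The gene was not called (edgeR adjusted p = 0.073). It passed the threshold without RGS tumor 10, the one with 0 counts (edgeR adjusted p = 0.034), and with DESeq2 (0.0334). *Il9r*, the IL-9 chain, had 7, 29 and 10 counts with vehicle and 0 in every RGS tumor. Its 7 counts in vehicle tumor 7 (0.200 CPM) lie under the floor of the shallowest RGS library, 0.226 CPM. The gene passed the count filter only through vehicle, was at least 2.45-fold lower with RGS at the floor (edgeR adjusted p = 0.0297), and lost its call without vehicle tumor 8 or any 1 RGS tumor (0.0600 to 0.133). *Il15*, the cytokine that keeps NK and memory T cells alive, was at 2.34, 3.71 and 7.22 CPM with vehicle and 0.663, 1.58 and 0.673 CPM with RGS. Its groups did not overlap, but the vehicle tumors were spread widely. It was 4.58-fold lower (-2.19, SE 0.69, edgeR adjusted p = 0.0199), a call lost without vehicle tumor 9 (0.204), vehicle tumor 8 (0.0565) or RGS tumor 10 (0.0598). *Il15ra*, which presents IL-15, was at 1.08, 2.57 and 6.06 against 0, 1.13 and 0.857 CPM and overlapped (-2.31, SE 1.04, edgeR adjusted p = 0.0971). *Il7* (0.714 to 2.32 and 0.151 to 1.70 CPM, adjusted p = 0.548) and *Tslp* (0 to 1.20 and 0 to 1.04 CPM, adjusted p = 0.802) were not called, and *Il7r* had 0 counts except 1 and 5 in RGS tumors 10 and 12. *Il2*, *Il9*, *Il21* and *Il2ra* had no count.

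*Il10*, a cytokine that damps macrophages and T cells, was counted 25, 15 and 1 times with vehicle and 0 times in each RGS tumor, so vehicle tumor 9 cannot be told from RGS at this depth. Having passed the count filter only through vehicle, it was at least 1.90-fold lower with RGS at the floor (edgeR adjusted p = 0.0462), and the call was lost without vehicle tumor 7 or 8 or any 1 RGS tumor (0.0874 to 0.116) and with DESeq2 (0.083). *Il10rb* (chr16:91406164-91425834), the accessory chain of the IL-10, IL-22 and interferon-lambda receptors, measured 20.9, 20.2 and 14.1 CPM with vehicle and 22.5, 34.0 and 31.1 CPM with RGS. Its RGS tumor 10 lay only just above the highest vehicle tumor, and another gene model on the same strand, Gm21970, shares 569 of its 3808 exon bases. The gene was called (0.66, SE 0.24, edgeR adjusted p = 0.0392), but not without vehicle tumor 8 or 9 or RGS tumor 11 or 12 (0.0771 to 0.159), and not with library size as the only scaling (0.113). *Il10ra*, *Il22* and *Il20* had no count. *Il20rb*, a chain of the IL-19, IL-20 and IL-24 receptors, was at 0.771, 0.321 and 0.344 CPM and 4.40, 1.58 and 0.918 CPM, without overlap. It was not called (2.25, SE 0.99, edgeR adjusted p = 0.0895), but passed the threshold without RGS tumor 12 (0.0465) and with DESeq2 (0.0314).

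None of the 2 tested IL-12 family genes and 5 tested IL-17 family genes was called, where 32.8% of all tested genes were. Numbers this small say little about either family. The IL-17 receptor chains *Il17ra* (16.1 to 23.7 CPM with vehicle, 15.7 to 18.1 CPM with RGS), *Il17rc* (19.3 to 33.1 and 25.6 to 44.8 CPM) and *Il17rd* (3.10 to 6.57 and 2.41 to 10.5 CPM) overlapped between groups, with edgeR adjusted p of 0.646, 0.363 and 0.785. The ligand *Il17d* (0.143 to 0.903 and 0 to 1.59 CPM) and the IL-25 chain *Il17rb* (0 to 1.16 and 0 to 0.663 CPM) were near the floor. So was *Il16* (0.570 to 1.33 and 0.0612 to 1.33 CPM), a ligand of neither family. *Il27ra* had 16, 2 and 9 counts with vehicle and 0 in each RGS tumor, so vehicle tumor 8 cannot be told from RGS at this depth. It passed the count filter only through vehicle, was at least 1.35-fold lower with RGS at the floor, and was not called (edgeR adjusted p = 0.0652). *Il12rb2*, which passed the count filter only through RGS, was at 0, 0.428 and 0.172 CPM against 0.615, 1.05 and 0.734 CPM (edgeR adjusted p = 0.328). Of its 3794 exon bases, 1519 overlap *Serbp1* on the other strand, which had 5534 to 17485 counts. *Il16* and *Il17rb* also overlap more abundant genes, *Stard5* and *Actr8*, and the strand setting of the counting is not given in the sources used here. *Il12a*, *Il12b*, *Il17b*, *Il25* and *Il23r* had no count.

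The 12 genes over 3 counts that were too low to test were *Csf3*, *Il17c*, *Il17f*, *Il19*, *Il24*, *Il27*, *Il1rn*, *Il13ra2*, *Il22ra2*, *Il31ra*, *Il5ra* and *Il7r*. RGS tumor 12 held the highest count for *Il1rn* (21), *Il31ra* (20) and *Il17c* (16), while the other 2 RGS tumors had 0 of each. No count of these 12 genes was above 21 in any tumor. The counts of 0 in the other 30 rows allow up to 3 counts, or 0.226 CPM in the shallowest library, so expression of *Il1b*, *Il2* or *Osm* under that level was not detectable at this depth.

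**Figure D3:**
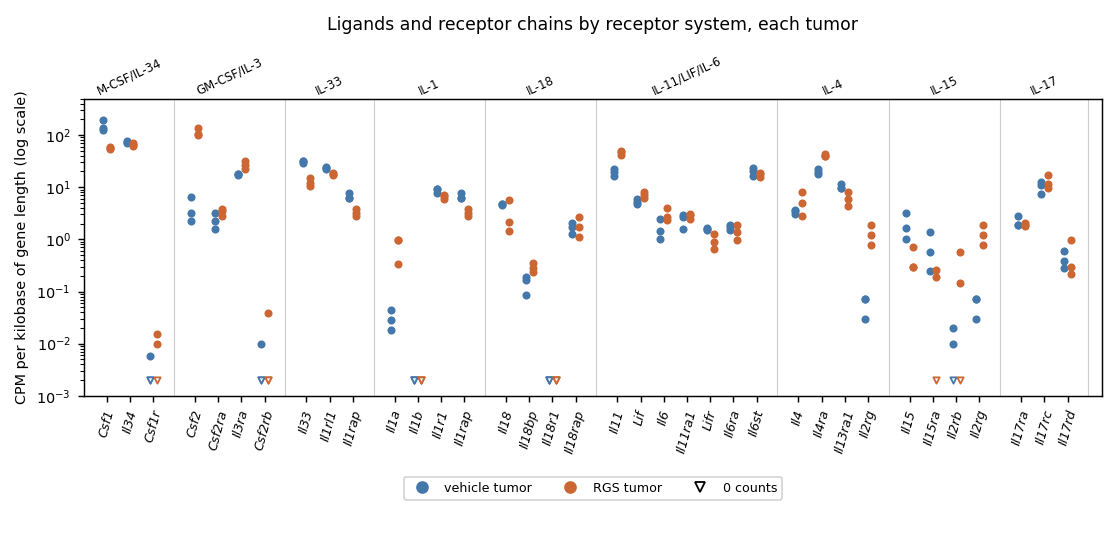
Level of ligands and receptor chains in each tumor, in CPM per kilobase of gene length on a log scale, grouped by receptor system, with open triangles near the foot of the axis for 0 counts. *Csf1* and *Il34* stand at the top of the plot while *Csf1r* lies at the foot, *Csf2* passes from under to over *Csf1*, *Il4ra* and *Il13ra1* part in opposite directions, and *Il1b* and *Il18r1* have no count in any tumor.

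Genes that act beside or downstream of these receptors were taken as 5 lists, 53 genes in the table. Of the 44 that could be tested, 8 were higher (18.2%) and 10 lower (22.7%), against the background of 16.3% and 16.5%, and their median log2 fold change was -7e-04. Of the 40 that passed the count filter in both groups, 7 were higher and 9 lower, the other 2 calls being *Cntfr*, which passed only through RGS, and *Pycard*, only through vehicle. Among related receptors and ligands with other names, 3 of the 6 tested genes were higher and none lower. *Cntfr*, the private chain of the ciliary neurotrophic factor receptor, had no count with vehicle and 40, 4 and 38 counts with RGS, at least 11.7-fold above the floor (edgeR adjusted p = 0.00331). *Crlf2*, the TSLP chain, was at 22.7 to 26.3 and 42.9 to 47.4 CPM (0.84, SE 0.19, edgeR adjusted p = 0.00212).

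Of the 10 tested JAK and STAT genes, 1 was higher and 3 lower, and of the 8 SOCS genes 1 was higher and 3 lower, against 16.3% and 16.5% of all tested genes. *Stat2*, of interferon signalling, was at 47.5, 45.4 and 48.2 CPM with vehicle and 6.53, 12.7 and 16.1 CPM with RGS (-2.00, SE 0.27, edgeR adjusted p = 1.4e-05). *Stat5a*, used by GM-CSF and gamma-chain receptors, was at 7.78 to 14.5 and 3.24 to 4.67 CPM (-1.46, SE 0.37, edgeR adjusted p = 0.00536). For both genes the RGS values all lay under the vehicle values. *Stat6*, the transducer of IL-4 and IL-13, was at 77.8, 58.1 and 59.98 CPM and 92.6, 85.6 and 95.6 CPM (0.48, SE 0.17, edgeR adjusted p = 0.0353), a call lost without any 1 of vehicle tumors 8 and 9 or of the RGS tumors (0.0590 to 0.180). The kinases *Jak1*, *Jak2*, *Jak3* and *Tyk2*, which sit on the receptor chains, were not called (adjusted p = 0.243, 0.548, 0.0683 and 0.131). *Socs1*, an inhibitor of interferon and IL-4 signalling, was at 14.8 to 18.6 and 32.5 to 39.3 CPM (1.02, SE 0.21, edgeR adjusted p = 0.00107). *Socs2* was at 14.2 to 18.7 and 5.87 to 10.02 CPM (-1.04, SE 0.30, edgeR adjusted p = 0.0111), a call lost without vehicle tumor 9 (0.0597). *Socs4* and *Socs3* were also lower (-1.04 and -0.60), the second not without RGS tumor 12 (0.073).

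Of the 13 tested IL-1 and IL-17 adaptors, 1 was higher, 1 lower and 11 were not called, against the same background. *Irak3*, a brake on MyD88 signalling, was at 0.457, 0.641 and 0.473 CPM with vehicle and 10.5, 6.48 and 10.6 CPM with RGS (4.12, SE 0.52, edgeR adjusted p = 6.8e-06). *Tab2* was lower (-0.56, edgeR adjusted p = 0.01), though not without RGS tumor 11 (0.0716). Of the 7 tested genes of the inflammasome and of IL-1 processing, 2 were higher and 3 lower, where the background is 16.3% and 16.5%. The sensors *Nlrp3* (0.228, 0.285 and 0.215 CPM against 7.24, 6.25 and 5.63 CPM, log2 fold change 4.68, SE 0.64) and *Aim2* (1.37, 1.43 and 2.41 CPM against 10.2, 18.9 and 20.5 CPM, 3.26, SE 0.40) were far above vehicle in every RGS tumor. Their edgeR adjusted p were 1.8e-05 and 5.1e-06. The adaptor *Pycard* (ASC), through which these sensors reach caspase-1, had 11, 40 and 18 counts with vehicle and 0 in each RGS tumor, at least 3.71-fold lower at the floor (edgeR adjusted p = 0.0153, and 0.0747 without vehicle tumor 8). *Casp4*, the caspase of the noncanonical inflammasome, was at 17.95, 39.2 and 43.0 CPM and 4.59, 7.01 and 9.54 CPM (-2.25, SE 0.33, edgeR adjusted p = 4.0e-05). *Gsdmd*, the pore through which IL-1 family cytokines leave, was at 59.5 to 74.0 and 34.0 to 46.7 CPM (-0.67, SE 0.18, edgeR adjusted p = 0.00932), a call lost without vehicle tumor 8 (0.0667) or RGS tumor 10 (0.0572). *Casp1* had 0, 5 and 23 counts and 35, 0 and 0 counts, with no order between the groups. *Crlf2*, *Stat6*, *Socs4*, *Socs3*, *Tab2* and *Gsdmd* lie outside the rule for naming genes of these lists and were named after their values were seen, to complete the counts.

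**Figure D4:**
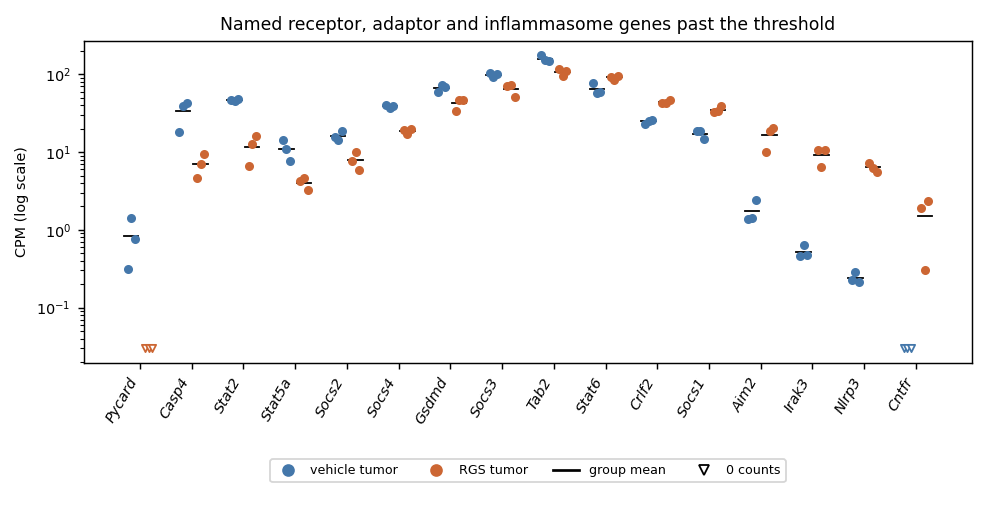
CPM on a log scale of 16 of the called receptor, JAK-STAT, SOCS, adaptor and inflammasome genes in each of the 6 tumors, with a bar at each group mean and open triangles at the foot of the axis for 0 counts. *Nlrp3*, *Irak3* and *Aim2* lie far above vehicle in all 3 RGS tumors, while *Pycard* has 0 counts in RGS and *Cntfr* 0 counts in vehicle tumors.

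How firmly each call stood differed. Of the 16 called genes, 7 (*Csf1*, *Csf2*, *Il11*, *Il1rap*, *Il2rg*, *Il33* and *Il4ra*) kept an adjusted p under 0.05 under every other scaling, filter and tool tried and with any 1 tumor left out. Of these 7, *Il2rg* passed the count filter only through RGS, and the same-strand model Gm20489 covers part of its exons. The other 9 called genes lost that adjusted p with at least 1 tumor left out. All 9 lost it without vehicle tumor 8, which left 4 genes higher in place of 7 and 3 lower in place of 9. Without RGS tumor 11, the shallowest library, 4 were lower. None of the 16 changed direction in any alternative. With library size as the only scaling the median of all genes moved by -0.14 on the log2 scale, and calls over all genes shifted to 1870 higher and 3152 lower, from 2503 and 2533. In the set it left 5 higher and 10 lower, and *Il3ra* and *Il10rb*, both called higher, lost their calls. With limma voom 10 genes of the set were higher and 13 lower, while calls over all genes also rose, to 3407 higher and 3408 lower.

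**Figure D5:**
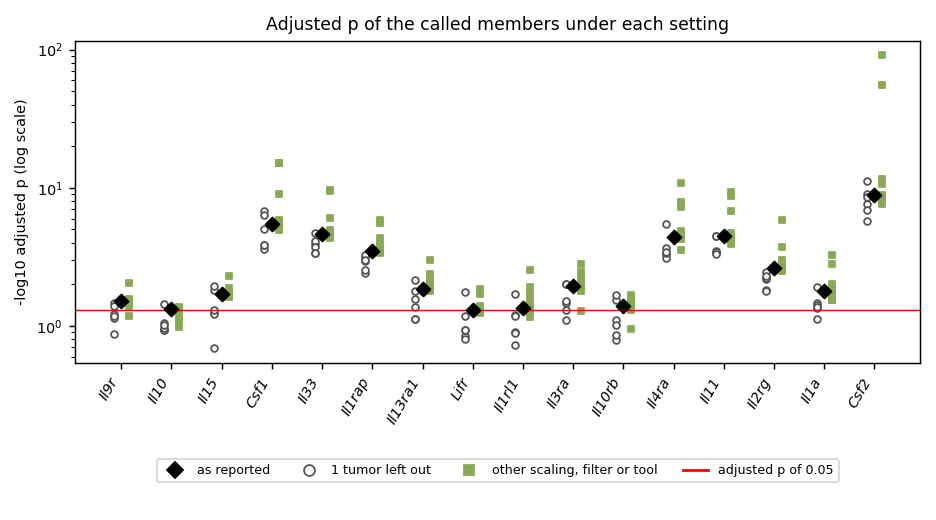
Minus log10 of the adjusted p (log axis) of the 16 called genes as reported (diamonds), with 1 tumor left out (open circles) and under other scalings, filters or tools (squares); the line marks an adjusted p of 0.05. The symbols of *Csf1*, *Csf2*, *Il11*, *Il1rap*, *Il2rg*, *Il33* and *Il4ra* all lie above the line, and each of the other 9 genes has open circles below it.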

How the data were processed

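Total RNA of 6 tumors was sequenced as paired-end reads. The table the authors deposited holds raw counts for every gene, not normalized, with a column for each tumor. The submitters' processing notes name cutadapt 1.18, FastQC 0.11.7, STAR 2.7.1a, featureCounts 1.6.4 and the build mm10. The strand setting, the treatment of reads that match several genes and the annotation release are not given in the sources used here. Columns were matched to tumors, and tumors to groups, by the treatment and number in the sample titles.

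Counts were filtered (median of at least 5 in at least 1 group), scaled with TMM and tested with edgeR 4.0.16 in R 4.3.3 by the quasi-likelihood F test with adjustment by Benjamini-Hochberg. The study names DESeq2, used here as an alternative (1.42.0) beside limma 3.58.1 voom with quality weights, other scalings and filters, thinned counts, mitochondrial genes left out, a fold limit and each tumor left out. A standard error is the log2 fold change over the square root of its F statistic, and an SD is over 3 tumors. Where a group had at most 3 counts in every tumor, a fold was set against the highest such floor and given as a bound. Any 2 libraries of a group differed by at least 18.5 times their sampling noise (chi-square per degree of freedom). The fit was tested on simulated counts. Upstream sequences are from RefSeq (GRCm38.p6) and exon overlaps from GENCODE M21 on the same build. *Il11* and *Tslp* were not matched in that release, so their exon overlaps were not checked. The genes and lists were chosen with earlier results of these data known. Named were all genes of the set over 3 counts and, of the pathway lists, at most 6 called genes per direction by size plus those sharing a receptor complex with a called gene. *Clcf1* was not analysed here, and some genes of the lists are not reported here.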

Additional observations from a re-analysis of the deposited data

How the results depend on the processing

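Depth went with treatment, the vehicle libraries all being the deeper ones. Of the 16 calls, 9 were lost with a tumor left out. With each tumor left out in turn, between 4 and 8 genes of the set were higher (7 with all tumors) and between 3 and 7 lower (9 with all), and 7 to 10 and 8 to 10 of the pathway genes. Over all genes the counts were 1673 to 2692 higher and 1737 to 2570 lower. With a limit of 1 on the size of the log2 fold change as well, they were 1168 higher (from 2503) and 1450 lower (from 2533). Other tools and scalings cost few calls: *Il10* with DESeq2, *Lifr* with RLE factors or without mitochondrial genes, *Il3ra* and *Il10rb* with library size only, *Il10* and *Il1rl1* with thinned counts, and *Il10*, *Il1rl1*, *Il9r* and *Lifr* without a filter. The filter built into edgeR left *Il10* and *Il9r* untested, so 7 genes of the set were lower in place of 9. Of the genes not called, 7 gained a call in some alternative: *Il1r1*, *Il1rl2*, *Il2rb*, *Il6*, *Il15ra*, *Il20rb* and *Osmr*. All 7 did so with limma voom, and *Il1rl2*, *Il2rb* and *Il20rb* also with DESeq2. Another 5 changed sign with no call. The log2 fold change of *Il17d* was -1.14 with limma voom and ranged from -6.36 to 1.48 with a tumor left out. That of *Il18rap* was -1e-04 with library size only, -0.077 with limma voom, and -0.23 to 0.39 with a tumor left out. With a tumor left out, *Il17ra* ranged from -0.26 to 0.036, *Il17rd* from -0.68 to 0.57 and *Tslp* from -2.13 to 0.062. The causes were not tested. No paired analysis was possible because the groups share no replicate number.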
